A study of Mus musculus with 4 samples.

Results

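DNA methylation at the promoters of Pou5f1, Nanog, Dazl and Ddx4 was examined in 3T3-L1 cells, a mouse embryo fibroblast line committed to the fat lineage, by methylated DNA immunoprecipitation on a tiling array (MeDIP-chip). In this assay DNA bound by an antibody against 5-methylcytosine (IP) and total DNA (input) from the same cells are labelled with different dyes and hybridized together. The probes were those placed by the array design (build mm9) inside a window set by position around each gene, whatever their signal. These windows held 40 of the 174638 genomic probes of the array, 16 at Pou5f1 (chr17:35641689-35646168), 7 at Nanog (chr6:122656471-122657915), 9 at Dazl (chr17:50432461-50434209) and 8 at Ddx4 (chr13:113442019-113443722). No mm9 annotation was used here, so the probes are given by position and are not assigned to exons, introns or gene starts.

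Pou5f1 encodes the transcription factor Oct4 and Nanog a homeodomain factor, and both maintain the pluripotent state of the early embryo and of embryonic stem cells. Dazl encodes an RNA-binding protein and Ddx4 an RNA helicase, and both act in the germ line. In somatic cells such as fibroblasts these genes are silent, and methylation of cytosine in CpG dinucleotides of their promoters is a known part of that silencing. The 4 loci therefore serve as places where a methylated state is known from other work.

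The 4 arrays came from shRNA8 cells at day +2, shRNA8 cells at day -2, control cells at day +2 and control cells at day -2, with 1 array each. The shRNA8 line is 3T3-L1 stably transfected with an shRNA against slincRAD, a long non-coding RNA, and the control is the wild type line. No line with another shRNA was analysed here. Cells at day -2 had not been induced. Cells at day +2 had been induced after reaching confluence at day 0 with insulin (167 nM), dexamethasone (1 µM) and 3-isobutyl-1-methylxanthine (0.5 mM). For shRNA8 at day +2 the label of the input names that day but words the cells as uninduced, and it was taken as day +2. With 1 array per group there is no spread between replicates, and no test was made: the precision of every value is limited by the number of arrays. The SD given below is the spread over the probes of a locus on the same arrays. MeDIP measures no RNA, so neither the level of slincRAD nor the silence of the 4 genes could be checked. In the order of the samples the arrays of the shRNA8 line are 1 and 2 and those of the wild type 3 and 4, with day -2 first in each line. If this is also their order on a slide, neither line nor day can be told apart from position.

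The promoters differ in how many CpG, the usual sites of methylation, they hold. The RefSeq sequences of the 4 genes, from 250 bases before the gene start to 50 after it (build GRCm38.p6), are shown because each CpG, in capitals, is a possible site of methylation. All 4 genes matched by symbol, and where a gene had more than 1 entry the one at its annotated start was taken. The build differs from that of the array, and these sequences were not placed among the probes.
Pou5f1, chr17:35505782-35506081, plus strand: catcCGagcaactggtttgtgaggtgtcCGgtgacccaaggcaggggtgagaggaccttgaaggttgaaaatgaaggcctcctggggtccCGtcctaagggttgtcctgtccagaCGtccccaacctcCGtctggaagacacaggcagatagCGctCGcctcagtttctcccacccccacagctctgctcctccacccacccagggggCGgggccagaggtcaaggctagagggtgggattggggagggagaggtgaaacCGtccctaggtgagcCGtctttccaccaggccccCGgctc
Nanog, chr6:122707239-122707538, plus strand: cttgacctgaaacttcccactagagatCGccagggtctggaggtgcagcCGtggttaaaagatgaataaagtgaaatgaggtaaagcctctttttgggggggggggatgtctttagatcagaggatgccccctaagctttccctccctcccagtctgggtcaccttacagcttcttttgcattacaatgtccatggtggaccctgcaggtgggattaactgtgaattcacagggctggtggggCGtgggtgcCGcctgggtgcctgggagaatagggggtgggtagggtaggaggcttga
Dazl, chr17:50293571-50293870, minus strand: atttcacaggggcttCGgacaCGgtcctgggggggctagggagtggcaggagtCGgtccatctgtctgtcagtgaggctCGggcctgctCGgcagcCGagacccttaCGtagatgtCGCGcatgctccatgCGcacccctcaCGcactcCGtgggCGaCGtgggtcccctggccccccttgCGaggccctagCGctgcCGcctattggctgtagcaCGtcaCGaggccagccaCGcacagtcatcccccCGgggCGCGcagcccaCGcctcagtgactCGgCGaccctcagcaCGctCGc
Ddx4, chr13:112652261-112652560, minus strand: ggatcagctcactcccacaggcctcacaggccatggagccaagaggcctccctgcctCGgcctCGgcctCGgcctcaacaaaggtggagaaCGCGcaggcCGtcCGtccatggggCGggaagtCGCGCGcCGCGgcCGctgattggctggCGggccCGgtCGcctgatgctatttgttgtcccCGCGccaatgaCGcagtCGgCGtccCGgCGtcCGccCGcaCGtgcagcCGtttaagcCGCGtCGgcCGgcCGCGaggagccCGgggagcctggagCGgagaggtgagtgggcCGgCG

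The pluripotency promoters held fewer CpG than the germline promoters. Nanog had 4 CpG in 300 bases and Pou5f1 had 11, against a median of 7 over 32851 promoters of the same length. Dazl had 28 and Ddx4 had 38, more than 85.8% and 95% of those promoters. The ratio of observed to expected CpG was 0.19 at Nanog, 0.37 at Pou5f1, 0.80 at Dazl and 0.98 at Ddx4. Searching both strands, the joint motif of Sox2 (CATTGT) and Oct4 (ATGCAAA) with any 1 base between them was found at Nanog, in its reverse form TTTGCATTACAATG on the strand shown, starting at base 176 of the window. It was found in 2 of all 32851 promoters and holds no CpG. The E-box CACGTG and the motif GGCGGGAA of E2F6, a repressor of germline genes, were each found once in the Ddx4 sequence, starting at bases 222 and 114, and do not overlap there. They were held by 7.15% and 2.19% of all promoters. Neither was found in the Dazl sequence. A match or its absence describes these letters only.

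In the IP channel the 4 loci gave the same profile on every array. The plot of both channels by position shows the IP curves of the 4 arrays lying on each other, while those of the input part where the input is dim. Over the 23 probes that passed the filter described below, the IP signal of a probe, centred on the array median, spanned a median of 0.13 on the log2 scale over the 4 arrays, with a highest span of 0.34. The input spanned a median of 0.53, with a highest of 1.91. The correlation of the IP between any pair of arrays over these 23 probes was 0.999, against 0.998 to 0.999 over all 95060 probes that passed. For the log2 ratio of IP to input it was 0.906 to 0.948 over the 23 probes and 0.935 to 0.951 over all. These correlations are a description, since the arrays share their probe sequences.

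**Figure D1:**
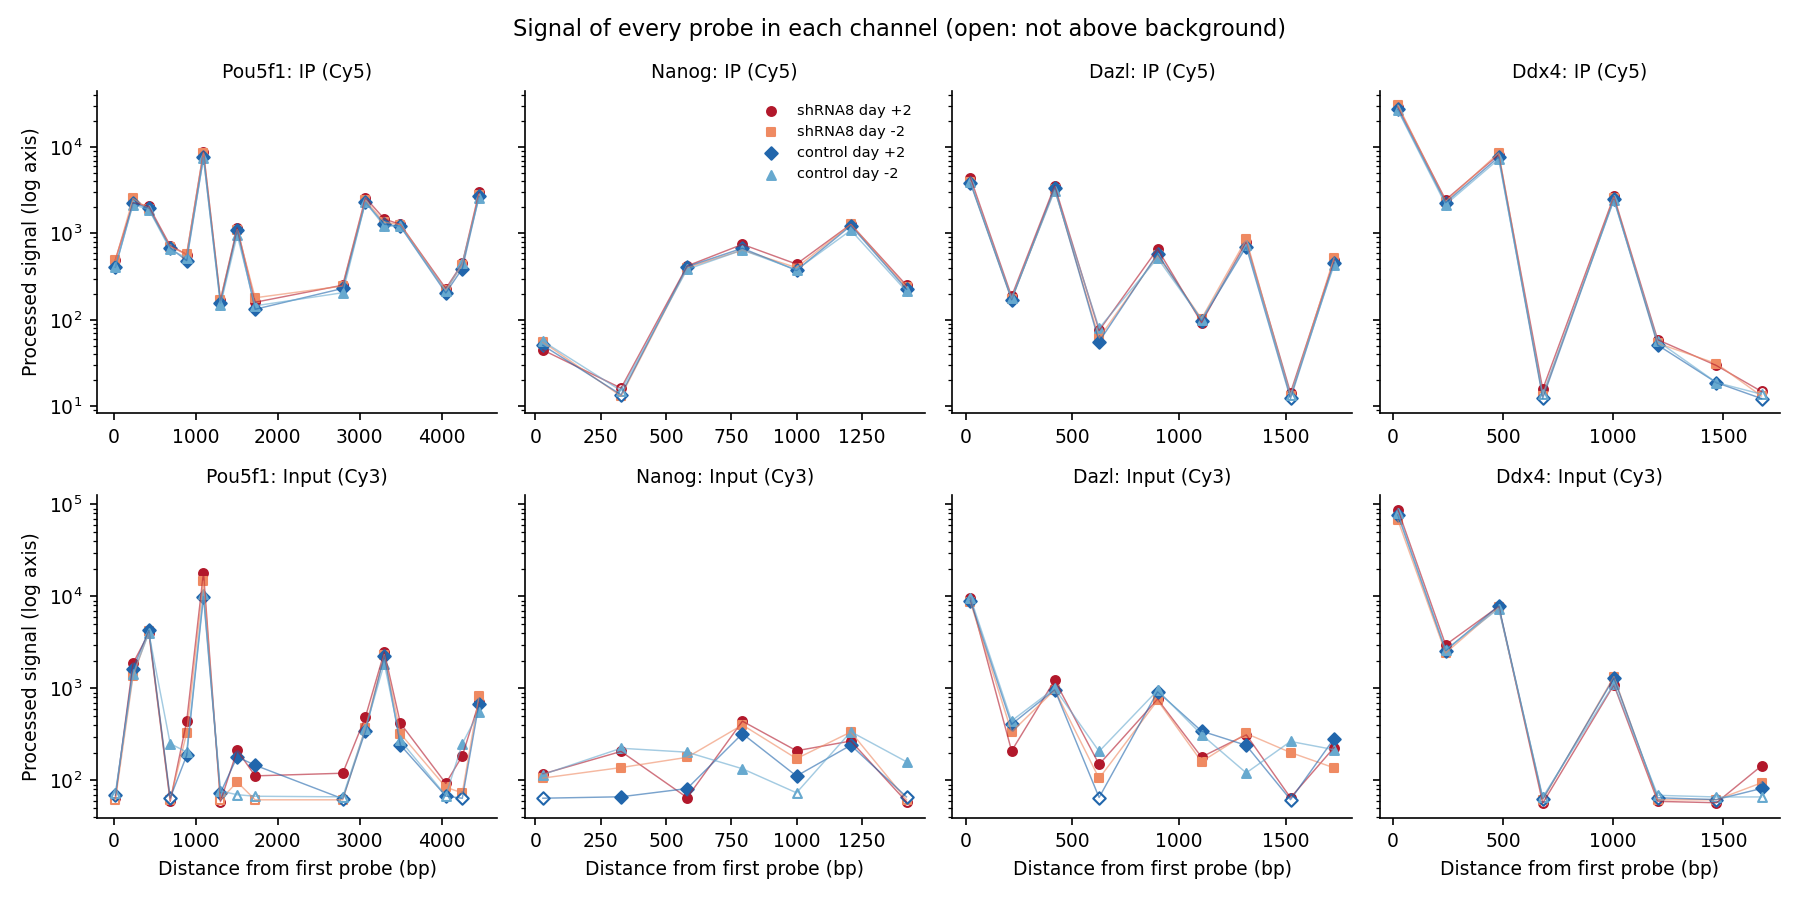
Processed signal (log axis, arbitrary units) of all 40 probes against the distance in bp from the first probe of each locus, with IP in the top row and input in the bottom row. Each colour is 1 array, and open symbols are spots not above background. The IP curves overlap in all 4 arrays, and the input curves separate where the signal is low, most of all at Nanog and Dazl.

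At Pou5f1 every probe gave IP signal. The 16 probes spanned 4480 bp in 2 groups separated by a gap of more than 1000 bp, and in all 4 arrays the IP signal was above background at each of them. The brightest probe, at chr17:35642764-35642808, had a processed IP signal of 8862 in shRNA8 cells at day +2 and 8590 at day -2, and of 7611 and 7567 in control cells. Its input was brighter still, at 18206 and 14678 in shRNA8 cells, against 9966 and 10681 in the control at day +2 and day -2. The arrays themselves differed in brightness, with a median net IP of 56.5 and 56.1 for shRNA8 cells, against 48.9 and 49.1 for the control. Centred on the array median, the log2 IP of this probe was 3.33 and 3.33 in shRNA8 cells, against 3.26 and 3.28 in the control. Its centred log2 input was 4.81 and 4.58 in shRNA8 cells, against 4.21 and 4.31 in the control.

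Other Pou5f1 probes paired a clear IP signal with an input that could not be told from background. At chr17:35641689-35641734 the IP was 496 and 487 in shRNA8 cells, against 406 and 408 in the control at day +2 and day -2, while the input was at or under background in all 4 arrays. At chr17:35642354-35642406 the IP was 724 and 703 in shRNA8 cells, against 678 and 654 in the control. Its input was above background only in control cells at day -2, at 251. The deposited processed signal of a spot at background is a floor value. At this probe it was 59.2 and 61.6 in shRNA8 cells and 64.4 in control cells at day +2, so the log2 ratios of 3.61, 3.51 and 3.40 there are set by the floor, beside 1.38 in control cells at day -2.

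At Nanog the 7 probes covered 1445 bp, and the IP signal reached less far than at the other loci. The brightest probe, at chr6:122657651-122657705, had an IP signal of 1277 and 1270 in shRNA8 cells, against 1231 and 1090 in the control at day +2 and day -2. The input was dim at every Nanog probe, with processed signals of at most 441. The probe at chr6:122656769-122656828 was at background in the IP of all 4 arrays while its input was above background, and it gave the lowest ratio of any probe that passed the filter at the 4 loci. It is 60 bp long. Of all array probes of 58 to 60 bp, 43.8% were at background in the IP of all 4 arrays, against 1.32% of those of 45 bp, and at the 4 loci this held for 3 of 4 probes of 58 to 60 bp and for 0 of 20 probes of 45 bp.

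At Dazl the 9 probes covered 1749 bp and alternated between bright and dim. The first, at chr17:50432461-50432505, had an IP signal of 4419 and 3953 in shRNA8 cells, against 3842 and 3957 in the control at day +2 and day -2. The next, 149 bp further on, had 187 and 174 in shRNA8 cells, against 171 and 178 in the control. The third, at chr17:50432856-50432900, was bright again with 3554 and 3251 in shRNA8 cells, against 3355 and 3142 in the control. Neighbouring probes thus differed several-fold in IP, in the same order in both lines.

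Ddx4 held the brightest member. At chr13:113442019-113442064 the IP signal was 29192 and 30642 in shRNA8 cells, against 27420 and 26677 in the control at day +2 and day -2. The input of that probe was 87619 and 67397 in shRNA8 cells, against 77146 and 79971 in the control, the brightest input of the 40 probes in every array. The 8 probes covered 1704 bp. The last 3, from chr13:113443195 on, were dim in the IP, at 12.2 to 58.7 over the 4 arrays. The probe at chr13:113442677-113442721, between brighter ones, was dim as well, at 12.4 to 15.7. At Ddx4 a bright IP went with a bright input, whereas at Pou5f1 and Nanog several probes with a clear IP had little input.

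Only probes whose input was above background in all 4 arrays, and which carried no quality flag, entered the normalized values. None of the 40 had a flag, and 23 passed, 8 of 16 at Pou5f1, 4 of 7 at Nanog, 7 of 9 at Dazl and 4 of 8 at Ddx4. Over the array 54.4% of probes passed. The 17 others had an input at background in at least 1 array, and 4 of them in all 4. The filter acts on the denominator of the ratio, and the probes it left out differed between the loci. The log2 ratios of deposited signals at the 8 probes left out at Pou5f1 had a median of 1.42 and 2.28 in shRNA8 cells, against 2.21 and 1.51 in the control at day +2 and day -2. At the 8 probes that passed the medians were 0.33 and 0.86 in shRNA8 cells, against 0.92 and 0.97 in the control. At Ddx4 the 4 probes left out had medians of -1.40 and -1.61 in shRNA8 cells, against -2.04 and -2.04 in the control, and all lay below the array median.

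Counted over all 40 probes with no filter, the deposited ratio lay above the median of the array at 13 of 16 Pou5f1 probes in 3 arrays and at 12 in control cells at day +2. It did so at 5 of 7 Nanog probes and 3 of 9 Dazl probes in each array. At Ddx4 it did so at 2 of 8 probes in shRNA8 cells at day -2 and at 1 of 8 in the other 3 arrays. Together 21 to 23 of the 40 probes lay above the array median, about the share that a median gives by definition.

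The normalized log2 ratio, on a scale where 0 is the median of the 95060 probes of an array, gave the level of each locus. At Pou5f1 it was 0.25 ± 1.48 in shRNA8 cells at day +2 and 0.39 ± 1.44 at day -2, and 0.45 ± 1.45 and 0.48 ± 1.42 in control cells (SD over 8 probes). At Nanog it was 0.29 ± 3.01 and -0.21 ± 2.40 in shRNA8 cells, against 0.49 ± 2.12 and -0.13 ± 2.78 in the control (SD over 4 probes). At Dazl it was -0.05 ± 1.18 and -0.02 ± 1.35 in shRNA8 cells, against -0.48 ± 1.41 and -0.33 ± 1.67 in the control (SD over 7 probes). At Ddx4 it was -0.41 ± 1.26 and -0.31 ± 0.86 in shRNA8 cells, against -0.53 ± 0.97 and -0.54 ± 1.08 in the control (SD over 4 probes). Averaged over the arrays the order was Pou5f1, Nanog, Dazl and Ddx4, with means of 0.39, 0.11, -0.22 and -0.45. Each gap between neighbours in this order was smaller than the SD over the probes of either locus in any array. The place of Nanog rests on its 60 bp probe, with ratios of -4.22 to -2.57 and an IP at background. With IP and input both required to be above background that probe dropped out, and Nanog came first, at 1.69 and 0.92 in shRNA8 cells, against 1.47 and 1.19 in the control. Pou5f1 then had 0.21 and 0.35 in shRNA8 cells, against 0.40 and 0.44 in the control.

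**Figure D2:**
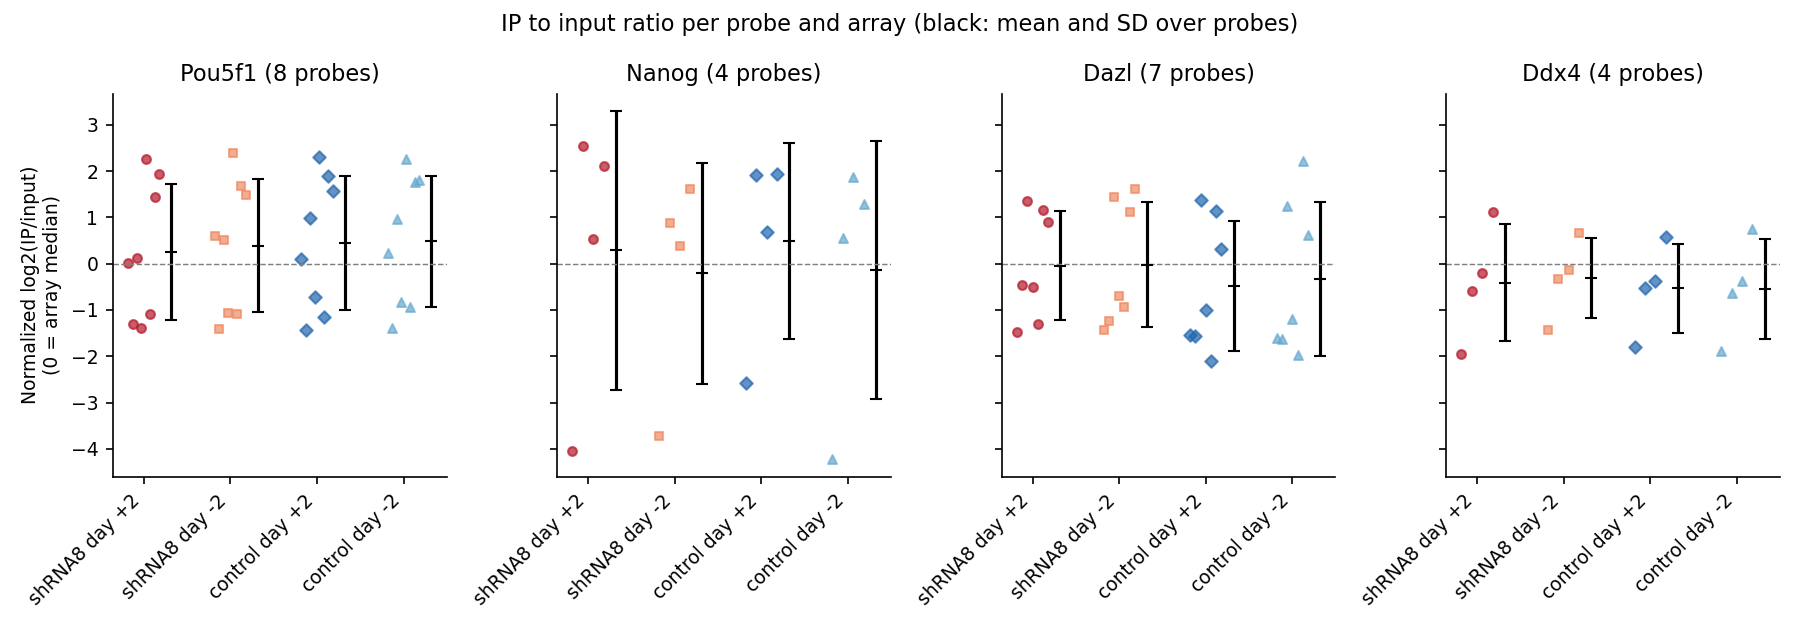
Normalized log2 ratio of IP to input (0 is the array median) of each probe that passed the filter, by locus and array, with the mean and SD over probes in black. The probes of a locus spread over several log2 units in every array, far more than the 4 arrays differ, and the lowest Nanog point in each array is the 60 bp probe whose IP was at background.

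Each locus, as 1 mean over its probes, was set among the 17452 regions of the array with at least 3 probes that passed the filter. None of the 4 means stood at an extreme in the ratio. The Pou5f1 mean pools 2 regions more than 1000 bp apart, which are given singly in the next paragraph. The level of Pou5f1 exceeded 72.5% to 82.6% of the regions over the 4 arrays, that of Nanog 49.9% to 82.8%, that of Dazl 36.6% to 59.8% and that of Ddx4 34.05% to 44.6%. The single channels ranked further apart, but signals of different probes in 1 channel are not calibrated to each other, and the Nanog mean includes the probe whose IP was at background. These ranks are a description of the probes on these arrays. In the IP, Ddx4 exceeded 99.9% of the regions and Pou5f1 91.2% to 91.4%, whereas Dazl exceeded 37.2% to 38.3% and Nanog 8.29% to 9.56%. In the input, Ddx4 exceeded 99.6% to 99.7% of the regions, Pou5f1 73.2% to 81.4%, Dazl 32.4% to 52.1% and Nanog 0.642% to 4.06%. A high ratio was thus not common to the 4 loci: the pooled mean of Pou5f1 lay above the median region in all 4 arrays, and Ddx4 lay below it in all 4. The Ddx4 level depended on the processing and lay above the array median, at 0.17 to 0.32 over the arrays after a within-array loess and at 0.38 to 0.47 on spot signals without background subtraction. On those spot signals Nanog was the lowest of the 4 loci, at -0.66 to -0.54. Dazl lay above the median region in both shRNA8 arrays and below it in both control arrays. The scale has no fixed unmethylated point, and a level near the array median does not show that a promoter lacks methylation.

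Over the probes that passed the filter, the level was not even within Pou5f1. The group of probes at chr17:35641689-35643438 had a mean of -0.64 ± 0.82 in shRNA8 cells at day +2 and -0.34 ± 1.05 at day -2, and of -0.27 ± 1.05 and -0.26 ± 1.05 in control cells, over 4 of its 9 probes. The group at chr17:35644459-35646168 had 1.13 ± 1.52 and 1.12 ± 1.52 in shRNA8 cells, against 1.16 ± 1.57 and 1.22 ± 1.46 in the control, over 4 of its 7 probes. The second group was higher in all 4 arrays. The first lay below the median region of the array, at -0.21 to -0.19, in all 4. This holds only for its probes that passed. At those the filter left out, the deposited log2 ratios ran from -0.14 to 3.77 over the arrays, many set by the floor of the input. All but the lowest of these lay above the array median. The central 95% of regions ended at 1.15 to 1.17 over the arrays. The second group lay close to that end in every array and past it in control cells at day -2. Within the second group the ratio was 2.26 to 2.40 over the arrays at chr17:35644737-35644785 and -1.14 to -0.94 at chr17:35644969-35645013, the next probe.

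By Euclidean distance over the 4 arrays, the region elsewhere with the level most like that of each locus was chr17:21786425-21787507 for Pou5f1 (distance 0.043), chr16:93711434-93712448 for Nanog (0.126), chr19:42203244-42204154 for Dazl (0.072) and chr8:108159139-108160705 for Ddx4 (0.028). Within a distance of 0.3 there were 682 other regions for Pou5f1, 827 for Ddx4, 259 for Dazl and 15 for Nanog.

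The comparison of shRNA8 with control cells asked whether the 4 loci differed between the lines. At each day 0 of the 4 loci passed the size rule, met where the probes of a region differ on average by 0.6 or more in log2 (1.52-fold) and 75% or more of them move that way. Over the array 3.34% of regions passed it at day +2 and 2.43% at day -2, in either direction. Of the 23 single probes, 6 differed by at least 0.6 at day +2 and 4 at day -2, or 26.1% and 17.4%, beside 22.7% and 20.6% of all probes.

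Dazl was the locus with the largest line difference. The ratio was higher in shRNA8 cells by 0.43 ± 0.44 at day +2 and by 0.31 ± 0.72 at day -2, and 6 of 7 probes were higher at each day. The median difference over all 95060 probes was above 0 as well, at 0.043 and 0.016, so most probes of the array were higher at each day. The share of all probes higher at each day was not counted. Among all regions the Dazl differences exceeded 94.5% and 90.1%. On spot signals without background subtraction they were 0.097 at day +2 and 0.101 at day -2, and over the 3 probes with input well above background 0.13 and 0.28. The arrays of the days are separate, but the probes share their locus and arrays and are no replicates. The difference lay in the input, which was lower in shRNA8 cells by a mean log2 difference of -0.50 at day +2 and -0.36 at day -2, while the IP differed by -0.03 and -0.04. At chr17:50433543-50433589 the input was 180 and 160 in shRNA8 cells, against 344 and 315 in the control at day +2 and day -2, and the IP was 92.7 and 103 in shRNA8 cells, against 98.1 and 100 in the control. The lines did not overlap there in the input and overlapped in the IP. This probe had the largest positive Dazl difference at day -2. The probe at chr17:50433752-50433799 went the other way at day -2, by -1.11, with an input of 324 in shRNA8 cells against 121 in the control. The days are not replicates.

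At Ddx4 the difference was 0.12 ± 0.31 at day +2 and 0.23 ± 0.23 at day -2, and at Pou5f1 it was -0.20 ± 0.42 and -0.09 ± 0.26. At Nanog it was -0.20 ± 0.90 and -0.08 ± 0.93. At Pou5f1, 5 of 8 probes were lower at day +2 and 6 at day -2. The median difference over all probes was 0.043 and 0.016 at those days, and the share of all probes that were lower was not counted. The largest single differences at Pou5f1 were at chr17:35642559-35642603, by -0.85 at day +2 and -0.45 at day -2. There the input was 438 and 327 in shRNA8 cells, against 187 and 203 in the control at day +2 and day -2, beside an IP of 570 and 573 in shRNA8 cells, against 485 and 519 in the control.

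**Figure D3:**
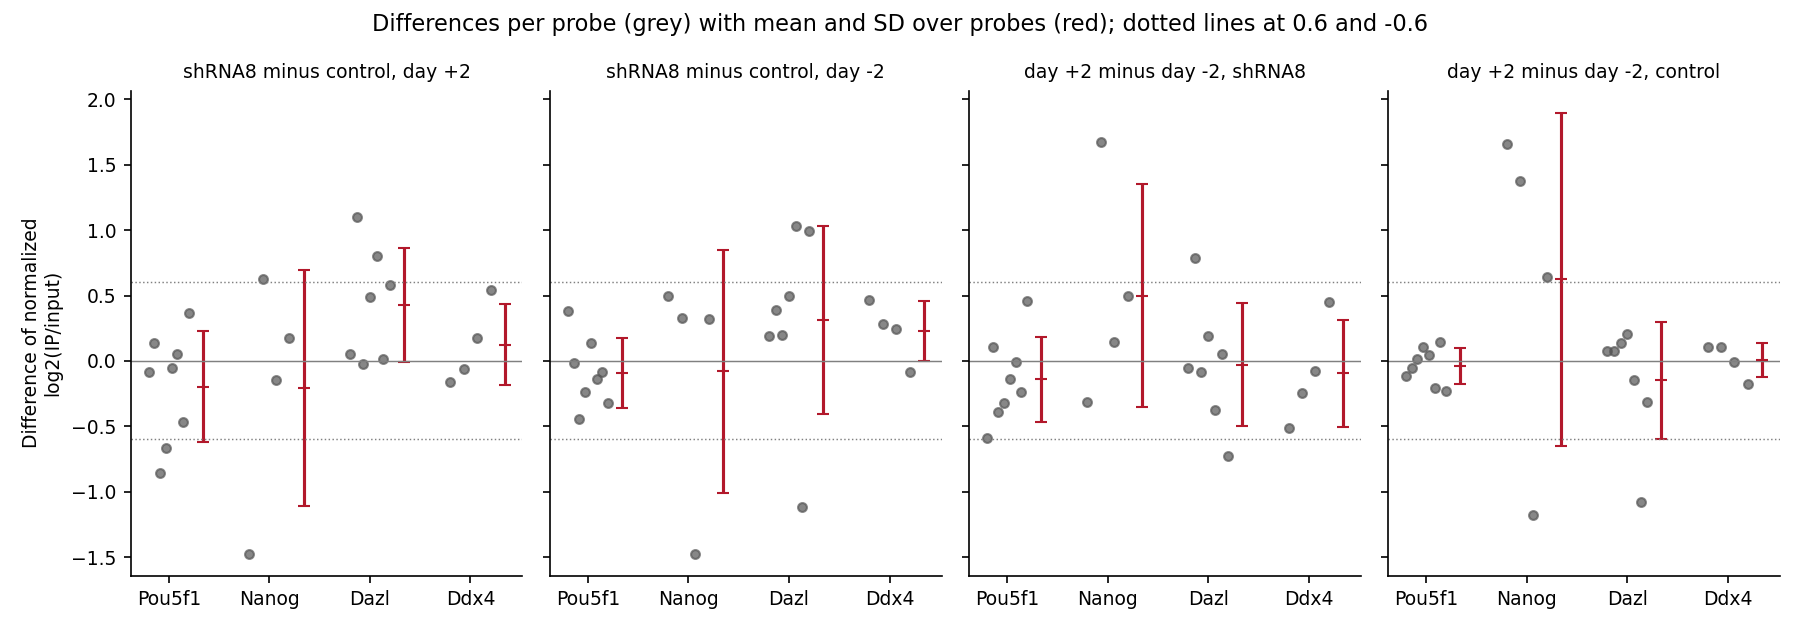
Difference of the normalized log2 ratio in each of the 4 comparisons, for every probe that passed the filter (grey) and as mean and SD over the probes of a locus (red). Dotted lines mark 0.6 and -0.6. The mean crosses a dotted line only for Nanog between the days in control cells, at 0.62, with 1 of its 4 probes at -1.18.

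The comparison of day +2 with day -2 asked how the loci differed before and after induction within each line. In shRNA8 cells 0 of the 4 loci passed the size rule, beside 3.19% of regions, and in control cells 1 of 4 did, beside 2.09%. That locus was Nanog. Its ratio was higher at day +2 than at day -2 in both lines, the difference being 0.50 ± 0.85 for shRNA8 and 0.62 ± 1.28 for the control, with 3 of 4 probes higher in each line. Among all regions the difference exceeded 97.4% in shRNA8 cells and 98.8% in control cells. The difference between these changes was not tested.

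The Nanog difference was again one of input. Between the days the input of Nanog changed by a mean of -0.34 in shRNA8 cells and -0.58 in control cells, and the IP by 0.11 and 0.02. At chr6:122657029-122657074 the shRNA8 line had an IP of 420 at day +2 and 402 at day -2, and the control 413 and 384. Its input was 65.0 and 178 in the shRNA8 line on those days, and 81.6 and 203 in the control. Before dye normalization these inputs were 2.86 and 8.50 units above background in shRNA8 cells, against 3.10 and 8.19 in the control, over a local background whose array median was 22 to 26. The neighbouring probe at chr6:122657241-122657285 moved the other way in control cells, by -1.18, with an input of 322 at day +2 and 134 at day -2. The probe at chr6:122656769-122656828, whose IP was at background in all arrays, moved by 1.66 in control cells. Without it, with IP and input both required to be above background, the difference over 3 probes was 0.77 in shRNA8 cells, which then passed the size rule, and 0.28 in control cells, which no longer did. On spot signals without background subtraction the difference over the 4 probes was 0.0024 in shRNA8 cells and 0.061 in control cells. None of the Nanog probes had an input well above background in all 4 arrays.

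The other loci changed less between the days. In shRNA8 cells the difference was -0.14 ± 0.33 at Pou5f1, -0.03 ± 0.47 at Dazl and -0.10 ± 0.41 at Ddx4. In control cells it was -0.04 ± 0.14 at Pou5f1, -0.15 ± 0.45 at Dazl and 0.0060 ± 0.13 at Ddx4. Of the 23 single probes, 3 changed by at least 0.6 in shRNA8 cells and 5 in control cells, or 13.0% and 21.7%, beside 18.9% and 19.2% of all probes. At Dazl the largest change in control cells was at chr17:50433752-50433799, by -1.08, where the input was 241 at day +2 and 121 at day -2. All 4 probes of Nanog were past 0.6 in control cells, 3 higher and 1 lower.

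In all 16 differences, 4 loci in 4 comparisons, the SD over the probes was at least as large as the mean. The mean IP difference lay between -0.11 and 0.11 and the mean input difference between -0.58 and 0.21, and the input difference was the larger in size in 14 of the 16. The SD over all 95060 probes was 0.11 to 0.14 for the IP differences and 0.51 to 0.57 for the input differences of the 4 comparisons. The comparisons share arrays, each array entering 2 of them, so their values are not independent.

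**Figure D4:**
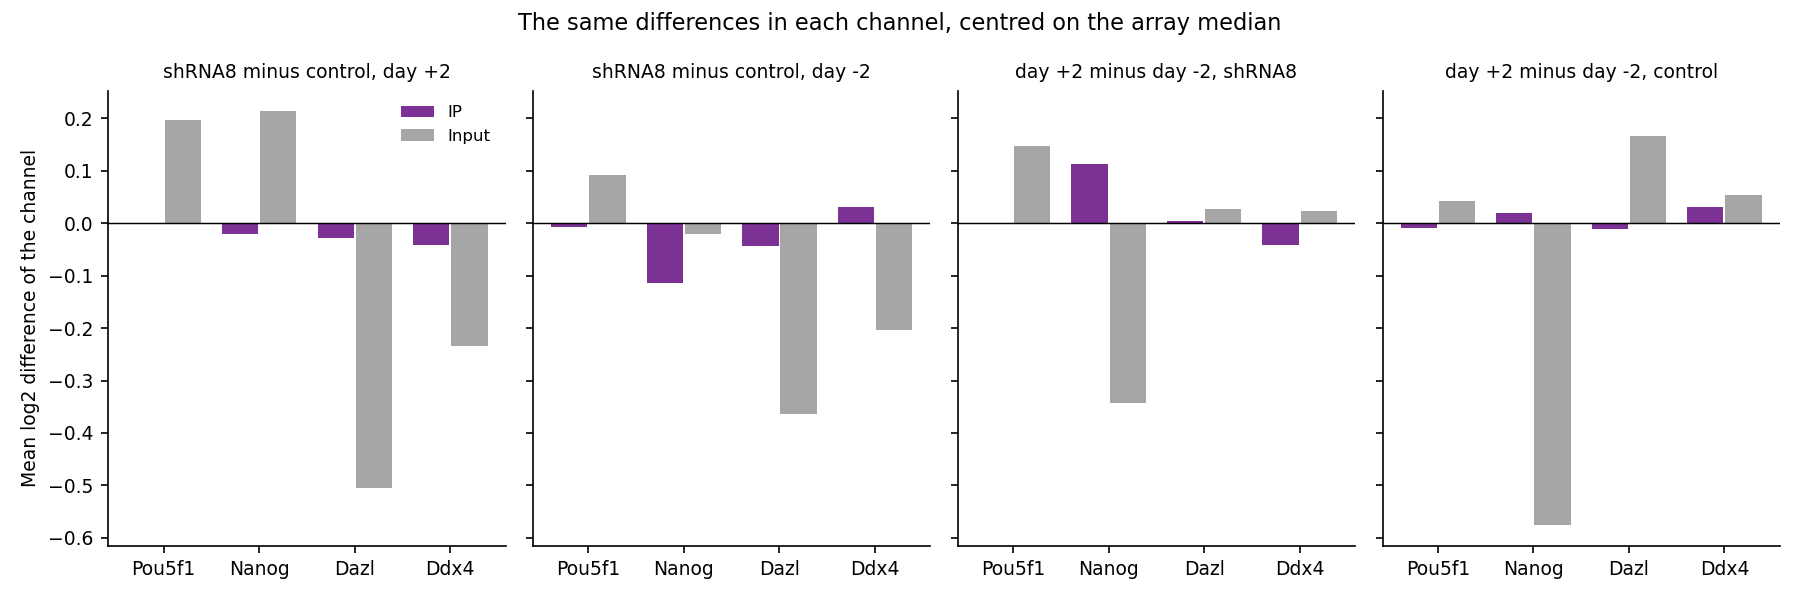
Mean log2 difference of the IP (purple) and of the input (grey) over the probes of each locus that passed the filter, for the 4 comparisons, each channel centred on its array median. The IP bars stay within -0.11 and 0.11, while the input bars reach -0.58 at Nanog between the days in control cells and -0.50 at Dazl between the lines at day +2.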

How the data were processed

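The deposited files are Feature Extraction (Agilent) 11.0.1.1 output for 4 two-colour arrays (mm9), per the file headers. IP was labelled with Cy5 and input with Cy3, 1 µg of DNA per sample, per the labels' protocols, an assignment that was not checked and whose exchange would turn every sign. The deposited intensity columns hold spot medians, local background, background-subtracted and dye-normalized processed signals. The deposited processed signal equals the background-subtracted signal times 1 constant per channel in shRNA8 cells at day -2, and times a factor that varies between spots in the other arrays (input 21.6 to 31.3). The deposited log10 ratio and its p-value were not used. No role is given for limma in the submitters' processing notes. Median net input was 5.95 to 8.78 and median net IP 48.9 to 56.5 per array.

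Ratios of processed signals (log2) at 95060 probes with no quality flag and an input above background in all arrays were centred on the array median and quantile normalized, which removes any overall difference between samples. Regions are runs of 3 or more probes with gaps of at most 1000 bp. Any of the 40 probes may be named, with the 1 region nearest in level to each locus. No test was made. The region script was tested on simulated data. Members, lists and thresholds were chosen with earlier results of these data known. A list of further pluripotency and germline genes was not analysed here, as probes carry coordinates only. Alternatives covered normalization, filters, signal, summary and size. Signals before dye normalization and a filter on IP were tried after seeing the data. Python 3.11.15, numpy 2.4.6, pandas 2.3.3, matplotlib 3.10.9, R 4.3.3 and limma 3.58.1 were used.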

Additional observations from a re-analysis of the deposited data

Results flagged for a closer look

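The change of Ddx4 between the days had opposite signs in the lines, -0.096 in shRNA8 cells and 0.0060 in control cells on the log2 scale. Each rests on 1 array per day, the difference between them was not tested, and both are smaller than the SD over the 4 probes (0.41 and 0.13).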

How the results depend on the processing

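Each level and difference was recomputed under up to 10 alternatives. Only 6 of 16 levels (4 at Pou5f1 and 2 at Dazl) and 5 of 16 differences had the same sign under every alternative run. The Nanog level in control cells at day -2 ran from -1.63 to 1.19 and changed sign under 5 of 9 alternatives, and the Nanog changes between the days ran from 0.0024 to 0.77 in shRNA8 cells and from 0.019 to 1.06 in control cells. With the IP channel alone, the level of Ddx4 was 2.84 and 2.88 in shRNA8 cells, against 2.88 and 2.85 in the control, and the Dazl line difference at day +2 was -0.028. With no filter on low input, the Pou5f1 line difference at day -2 was 0.25. Nanog, the 1 locus past the size rule between the days in control cells, did not pass with IP and input above background, the IP alone, all probes moving the same way, spot signals without background subtraction, no filter, or a size of 1, which gave 0 loci each, as did an input well above background, under which Nanog had no probe. Between the days in shRNA8 cells 1 locus passed with a size of 0.4 and 1 with IP and input above background, and between the lines at day +2 1 locus passed with a size of 0.4. The cause was not tested. No analysis of paired replicates was possible because each group had 1 array. A fit with line and day as additive terms, which leaves 1 residual degree of freedom, was not made. Dim input limits the values. The net input of single probes that passed the filter was as low as 2.44 at Nanog and 4.92 at Dazl. The filter itself left out 8 of 16 probes at Pou5f1, 3 of 7 at Nanog, 2 of 9 at Dazl and 4 of 8 at Ddx4.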
